A study of Mus musculus with 6 samples.

Results

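Hox genes were measured by single-cell RNA sequencing in 6 cultured populations of mouse muscle-derived stem/progenitor cells, which are the slowly adhering cells left after muscle digests are replated several times. The 39 members are all genes of Hox clusters A to D that were on the gene list of every sample, of 21485 shared genes: 11 in cluster A, 10 in B, 9 in C and 9 in D. Populations Y1-1, PtC5 and FT-QU came from young mice and are young replicates 1, 2 and 3. Populations O1-1, NA-f2 and NA-f3 came from old mice and are old replicates 1, 2 and 3. All 6 were grown in the same serum-rich proliferation medium. The labels used here give no strain, sex, age in months, muscle or limb, and no number of animals behind a population, so the p-values measure the spread between these 3 young and 3 old populations.

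Hox genes encode homeodomain transcription factors that give cells along the body axis and the limbs their position. Within each cluster the genes lie in order of paralog number, and low numbers act towards the head while high numbers act towards the tail and the limb tips. Many cell types, fibroblasts and satellite cells of different muscles among them, keep a Hox pattern of the place they came from, held by Polycomb and trithorax proteins on CG-rich chromatin.

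The gene bodies of cluster A span chr6:52155590-52260880, those of B chr11:96194316-96368256, those of C chr15:102921103-103036852 and those of D chr2:74668310-74765142 in mm10. 1 promoter window per cluster is printed for a gene that separates the samples or is shared by them, from 250 bases before to 50 after the RefSeq start (GRCm38.p6), 5′ to 3′ on the gene's strand, with CG dinucleotides in capitals. At 1 or more counts per 1000000, Hoxa9 (chr6:52227321-52227620, minus strand) was found in every sample, Hoxb4 (chr11:96318017-96318316, plus strand) in old replicates 1 and 2, Hoxc4 (chr15:103034145-103034444, plus strand) in all samples but young replicate 3, and Hoxd8 (chr2:74704365-74704664, plus strand) in old replicate 2.
Hoxa9: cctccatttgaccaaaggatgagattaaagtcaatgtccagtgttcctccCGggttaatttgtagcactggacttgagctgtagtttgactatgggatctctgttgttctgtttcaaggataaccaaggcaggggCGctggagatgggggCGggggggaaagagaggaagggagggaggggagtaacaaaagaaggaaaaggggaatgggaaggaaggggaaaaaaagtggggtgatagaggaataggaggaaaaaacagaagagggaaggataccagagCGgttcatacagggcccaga
Hoxb4: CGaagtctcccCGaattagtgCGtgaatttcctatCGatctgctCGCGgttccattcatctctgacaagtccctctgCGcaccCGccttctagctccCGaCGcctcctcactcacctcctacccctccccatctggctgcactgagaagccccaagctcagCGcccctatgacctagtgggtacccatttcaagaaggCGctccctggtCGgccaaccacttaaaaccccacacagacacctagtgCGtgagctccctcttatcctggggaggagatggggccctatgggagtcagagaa
Hoxc4: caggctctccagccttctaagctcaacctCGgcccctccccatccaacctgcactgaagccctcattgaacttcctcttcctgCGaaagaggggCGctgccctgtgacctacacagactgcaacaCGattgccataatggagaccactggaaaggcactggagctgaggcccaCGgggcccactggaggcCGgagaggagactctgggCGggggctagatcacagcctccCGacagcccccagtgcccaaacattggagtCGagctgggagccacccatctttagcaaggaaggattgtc
Hoxd8: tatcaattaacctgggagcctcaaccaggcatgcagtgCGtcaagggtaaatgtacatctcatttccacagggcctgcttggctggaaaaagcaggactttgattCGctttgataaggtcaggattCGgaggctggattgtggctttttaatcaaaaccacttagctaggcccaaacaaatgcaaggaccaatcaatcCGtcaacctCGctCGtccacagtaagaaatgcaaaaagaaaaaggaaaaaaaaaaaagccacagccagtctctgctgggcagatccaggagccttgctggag
The windows of Hoxa9, Hoxb4, Hoxc4 and Hoxd8 hold 4, 14, 9 and 6 CG dinucleotides. RefSeq windows were found by gene symbol for 22 of the 39 Hox genes (9 in cluster A, 3 in B, 1 in C and 9 in D). Their 24 windows hold a median of 14.5 CG, against a median of 7 over all 32851 windows. The ends of the Hoxa3, Hoxa7, Hoxd10 and Hoxd13 windows did not match an annotated transcript of the gene. The letters TGATNNAT, a spacing of the Pbx-Hox composite motif, were searched on both strands and are in 4 of the 24 Hox windows and in 8.85% of all windows. None of the 4 printed windows holds them.

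Each sample kept 8674 to 12541 cells (61673 of 62849 barcodes) and 133683424 to 196258384 UMIs, which count single RNA molecules. Values are given as counts per 1000000 UMIs over the shared genes (CPM), and because the assay counts the 3′ end of each transcript once they were not divided by gene length. Shares of cells are at 5000 UMIs per cell in all samples. Any 2 samples shared 23 to 35 barcodes, at most 0.369% of the smaller sample. Muscle identity varied: the summed level of 8 myogenic genes was 332, 2252 and 211 CPM in young replicates 1 to 3 and 277, 1709 and 3456 CPM in old replicates 1 to 3. Pax7, the satellite cell factor, was at 0.026 CPM in young replicate 3 and between 9.93 and 55.3 CPM elsewhere, and Myf5 was at 0.0075 CPM in young replicate 1 and between 12.0 and 55.7 CPM elsewhere. Summed markers of fibro-adipogenic cells (8 genes) were 186 to 305 CPM in young and 181 to 462 CPM in old samples. Gsn alone gave 149 to 317 CPM of this sum, whereas Pdgfra, Dcn and Pi16 did not exceed 1.97 CPM. Ly6a added 126 CPM in old replicate 2 and Smoc2 103 CPM in young replicate 2. Tendon markers (3 genes) summed to 125 to 282 and 129 to 304 CPM, nearly all of it Scx, and Tnmd did not exceed 0.021 CPM. Markers of smooth muscle and pericytes (6 genes) summed to 19.0 to 88.0 and 13.6 to 43.6 CPM. Epithelial markers (5 genes) summed to 0.424 to 1.48 and 1.97 to 12.6 CPM, with Krt18 giving 7.24 CPM of old replicate 2 and 11.6 CPM of old replicate 3. Endothelial markers (6 genes) summed to 0.546 to 59.4 CPM in young samples, of which Tek made up 58.9 CPM in young replicate 2, and to 0.833 to 1.72 CPM in old ones, those of immune cells (6 genes) 1.59 to 8.27 and 1.58 to 4.82 CPM, and those of glia (5 genes) 1.06 to 6.40 and 1.65 to 3.50 CPM. Their part in the Hox levels was not tested.

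The populations carried different sets of Hox genes. At a summed level of 1 CPM or more, cluster A RNA was found in all 6 samples, cluster C RNA in every sample but young replicate 3, cluster B RNA in old replicates 1 and 2, and cluster D RNA in old replicate 2. Of the 39 genes, 23 reached 1 CPM in at least 1 sample (10 in cluster A, 3 in B, 8 in C and 2 in D), 16 did not, and Hoxd1 and Hoxd12 had no UMI in any sample. Hoxa3, Hoxa5, Hoxa7, Hoxa9 and Hoxa10 were the 5 genes at 1 CPM or more in every sample.

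**Figure D1:**
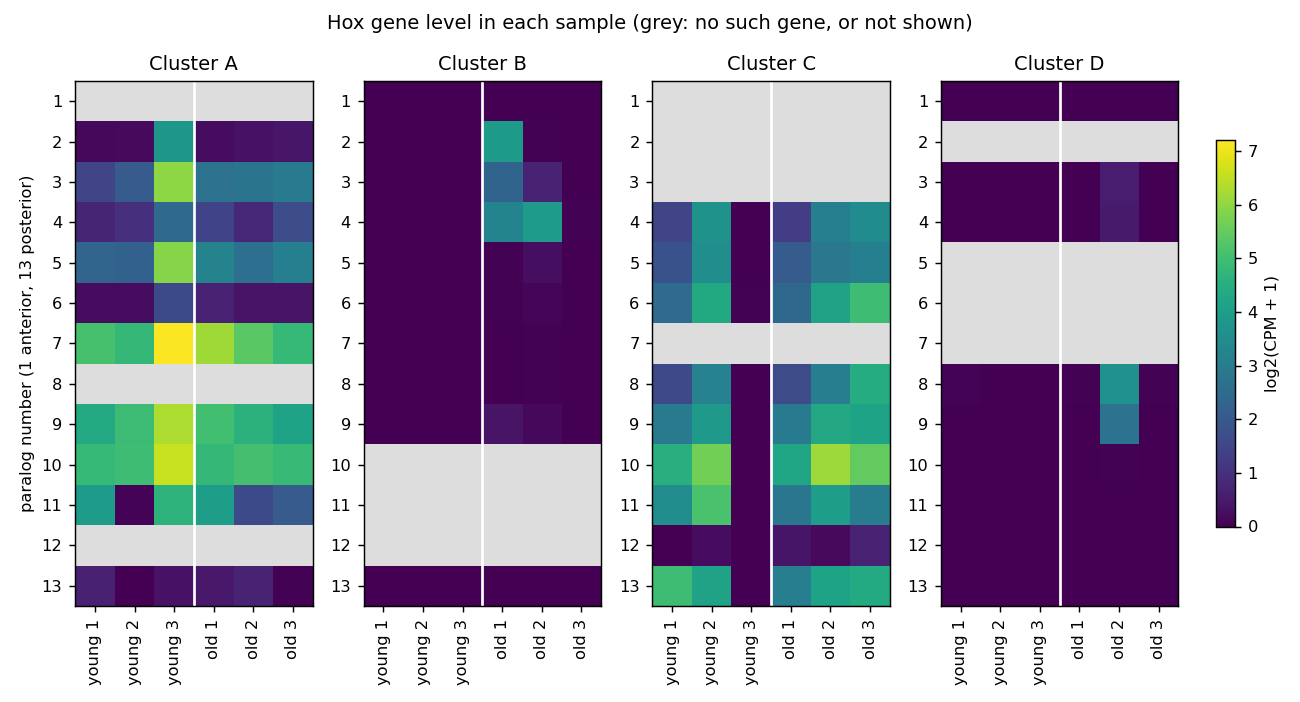
Level of each Hox gene as log2(CPM + 1) (colour), with paralog number on the vertical axis, samples on the horizontal axis and 1 panel per cluster; grey marks numbers with no gene or not shown. Young replicate 3 is brightest in cluster A and dark throughout C, and colour in B and D is limited to old replicates 1 and 2.

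Summed over the 11 genes of cluster A, the level was 104, 96.1 and 482 CPM in young replicates 1 to 3 and 163, 113 and 95.5 CPM in old replicates 1 to 3. Young replicate 3 stood above the other 5 samples, and the age groups overlapped. All 10 cluster A genes that reached 1 CPM were highest in young replicate 3. Cluster A made up 56.2%, 36.9% and 99.98% of Hox UMIs among young samples, against 67.8%, 36.8% and 37.6% in the old.

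Hoxa7, a factor of the trunk, was at 33.4, 27.0 and 141 CPM among young samples, against 71.1, 40.3 and 27.4 CPM in the old. Hoxa9, which has been reported to be induced in activated satellite cells of aged mice, was at 20.3, 29.5 and 79.1 CPM among young samples, against 31.3, 23.5 and 17.0 CPM in the old. Hoxa10, a posterior factor of the lumbar axis and hindlimb, was at 27.3, 30.5 and 95.5 CPM among young samples, against 26.7, 32.8 and 28.3 CPM in the old. For all 3 genes young replicate 3 was the highest sample, the other young samples lay among the old ones or just below them (Hoxa7 in young replicate 2), and the groups overlapped.

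The anterior genes set young replicate 3 apart more widely. Hoxa3, needed for pharyngeal organs of the neck, was at 1.83, 3.16 and 61.4 CPM among young samples, against 5.44, 5.83 and 6.71 CPM in the old. Hoxa5, a cervical and upper thoracic factor, was at 4.12, 3.70 and 58.1 CPM among young samples, against 8.28, 5.14 and 7.56 CPM in the old. The old values of both genes lay between the first 2 young samples and the third. The gene body of Hoxa3 overlaps those of Hoxa4, Hoxa5 and Hoxa6 in the annotation, so the split of reads among these genes is uncertain. Hoxa2, which patterns the pharyngeal arches, was at 13.1 CPM in young replicate 3 and at 0.112 to 0.350 CPM in the other 5 samples.

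Hoxa11, a factor of the middle limb segment, was at 14.4, 0.052 and 24.1 CPM among young samples, against 15.5, 2.07 and 3.20 CPM in the old. Young replicate 2 was nearly without it, while it kept Hoxa10 and Hoxa9. Where the antisense RNA of Hoxa11 was on the gene list, it was counted as a gene of its own (126 CPM in young replicate 3). Strand use in the counting is not given in the sources used here, and how fully the reads of Hoxa11 and of its antisense RNA were separated was not tested. Hoxa4 and Hoxa6 reached their highest values in young replicate 3 (4.65 and 2.06 CPM), and Hoxa13, of the limb tips, stayed at or under 0.631 CPM. The median shift of 382 genes on chromosome 6, which holds cluster A, was 0.42 (log2) in young replicate 3 and from -0.120 to -0.032 elsewhere, and 4 genes within 500 kb of the cluster summed to 255 CPM there against 157 to 193 CPM. The part of the chromosome in the cluster A level was not tested.

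**Figure D2:**
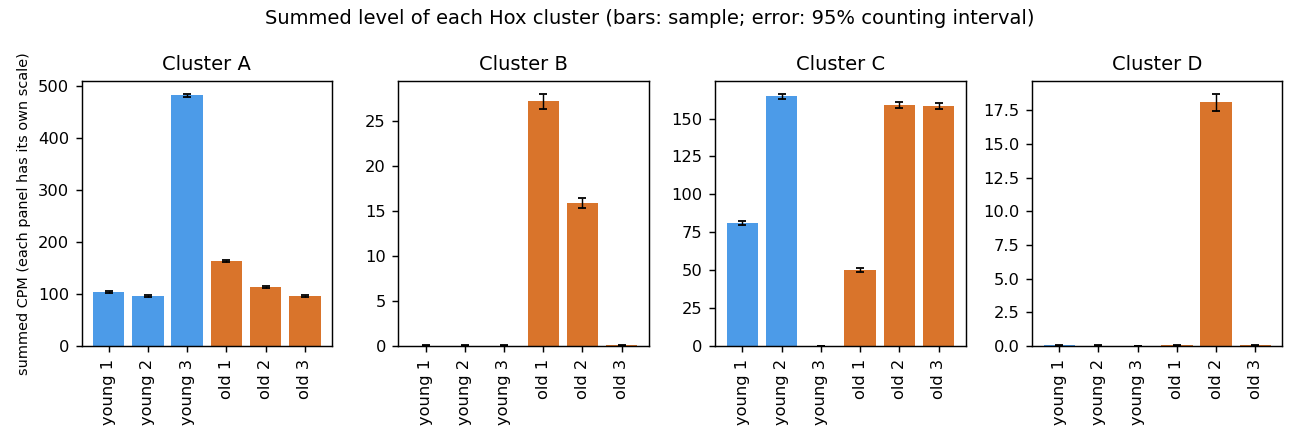
Summed CPM of each Hox cluster (bars, 1 per sample, blue young and orange old) with 95% exact Poisson intervals, which cover counting error only; each panel has its own vertical scale from 0. Cluster C is at 0.058 CPM in young replicate 3 and at 50.04 to 165 CPM elsewhere.

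Cluster C summed to 80.9, 165 and 0.058 CPM among young samples, against 50.04, 159 and 158 CPM in the old. Young replicate 3 was nearly without it, with 11 UMIs of 188858869 (95% exact Poisson interval 0.029 to 0.104 CPM), and it was the deepest but one of the 6 libraries. Of its 9 cluster C genes, 5 had no UMI and 1 had more than 3 UMIs. The 24 genes within 500 kb of the cluster summed to 2080 CPM in young replicate 3 and to 1059 to 2139 CPM in the other samples. Atp5g2, Pcbp2 and Hnrnpa1, at 249, 421 and 204 kb, gave 640, 577 and 416 CPM of it in young replicate 3. Smug1, the nearest at 116 kb, was at 6.34 CPM there and at 4.01 to 11.4 CPM elsewhere. The state of the cluster's DNA was not tested.

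The anterior members Hoxc5 and Hoxc6, of the neck and forelimb levels, were highest in young replicate 2 and in old replicates 2 and 3. Hoxc5 was at 2.49, 10.5 and 0.0053 CPM among young samples, against 3.27, 6.24 and 7.69 CPM in the old. Hoxc6 was at 4.72, 19.7 and 0.032 CPM among young samples, against 4.32, 16.9 and 30.3 CPM in the old. Young replicate 1 and old replicate 1 held the lower values, apart from young replicate 3. These 2 samples were also the ones counted on the shorter of the 2 gene lists, and the part of the list was not tested. The gene body of Hoxc5 overlaps those of Hoxc6, Hoxc8, Hoxc9 and Hoxc10, so its reads are uncertain.

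Hoxc8, which patterns the thoracic axis, was at 2.02, 8.11 and 0 CPM among young samples, against 2.21, 7.44 and 20.8 CPM in the old. Hoxc10, a lumbar and hindlimb factor, was at 21.8, 50.01 and 0 CPM among young samples, against 18.1, 69.2 and 43.7 CPM in the old. Hoxc11, next to it, was at 10.6, 34.0 and 0 CPM among young samples, against 6.04, 15.1 and 7.21 CPM in the old. All 3 were without a UMI in young replicate 3, for which 3 UMIs would be 0.0159 CPM, and the order of the other samples differed from gene to gene. Hoxc13, known for hair and nail, was at 30.5, 16.6 and 0.016 CPM among young samples, against 7.53, 17.0 and 20.3 CPM in the old, so that it was highest in young replicate 1, where Hoxc4 to Hoxc11 were below their values in young replicate 2. Hoxc4 and Hoxc9 reached 11.7 and 19.5 CPM, and Hoxc12 stayed at or under 0.608 CPM.

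Cluster B summed to 0.022, 0.016 and 0.037 CPM among young samples, against 27.2, 15.9 and 0.066 CPM in the old, from 3, 3, 7, 4112, 2815 and 12 UMIs. Both samples that held it had Hoxb3 and Hoxb4, and old replicate 1 also had Hoxb2. Hoxb2, a hindbrain gene, was at 14.2 CPM in old replicate 1 and at or under 0.023 CPM elsewhere. Hoxb3 was at 4.02 CPM in old replicate 1 and 0.631 CPM in old replicate 2. Hoxb4 was at 8.59 CPM in old replicate 1 and 14.7 CPM in old replicate 2, and at or under 0.033 CPM in the other 4 samples. The 7 other genes of the cluster, from Hoxb5 to the posterior Hoxb13 and the anterior Hoxb1, did not exceed 0.297 CPM in any sample. The median shift of 647 genes on chromosome 11, which holds cluster B, was 0.39 (log2) in old replicate 2 and from -0.104 to 0.0047 elsewhere, old replicate 1 included.

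Cluster D was found in old replicate 2 at 18.1 CPM, and its sum was at or under 0.045 CPM in the other 5 samples. Hoxd8 made up 11.5 CPM and Hoxd9 5.70 CPM of it, both genes of the trunk and proximal limb. Hoxd3 and Hoxd4 followed at 0.473 and 0.422 CPM, and their gene bodies overlap. The limb genes Hoxd10 to Hoxd13 had at most 7 UMIs each in that sample.

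By paralog number, groups 9 to 13 made up 71.6%, 67.0% and 41.3% of Hox UMIs among young samples, against 47.0%, 60.8% and 54.2% in the old. Groups 1 to 3 made up 1.61%, 1.61% and 16.0% among young samples, against 10.6%, 2.66% and 3.76% in the old. Young replicate 3, through Hoxa2 and Hoxa3, and old replicate 1, through Hoxb2, had the largest anterior shares, and the age groups overlapped. Over the 39 genes, samples were most alike between young replicate 2 and old replicate 3 (Pearson r = 0.954 of log2(CPM + 1), a description over genes of 2 libraries). Young replicate 3 was the least like the others, at 0.367 to 0.627. The value over 39 genes includes clusters B and D, which young replicate 2 and old replicate 3 were both nearly without. Within cluster C alone that pair was at 0.804, and the highest value was 0.946, between young replicate 2 and old replicate 2. Within cluster A alone the highest was 0.976, between young replicate 1 and old replicate 1. Over 11671 expressed genes the highest value was also between young replicate 1 and old replicate 1, the samples on the shorter gene list.

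Shares of cells were set beside those that an even spread of the same RNA over all cells would give. The share of cells with a cluster A UMI was 40.3%, 37.5% and 87.0% among young samples, against 53.4%, 40.9% and 36.1% in the old, and an even spread would give 41.7%, 38.4%, 90.4%, 55.6%, 42.3% and 37.4%. Without thinning the shares were 67.1% to 98.5%. For cluster C the shares were 31.96%, 54.3% and 0.0188% among young samples, against 16.3%, 52.4% and 51.3% in the old. The even spread would give 33.1%, 56.2%, 0.0188%, 21.5%, 54.0% and 53.8%. In all samples that held a cluster A or C pattern the share lay below the even spread. The even spread was above the 95% Wilson interval of the share in each case but young replicate 2 in cluster A. These intervals treat cells as independent draws. They cover the share only, and the even spread was computed from the same cells, so they do not measure the error of the gap. The gap was widest for cluster C in old replicate 1 (Wilson interval 15.6% to 17.0%). There the variance of cluster C UMIs per cell was 1.68 times their mean, against 1.09 to 1.15 in the other 4 samples that held the cluster. For cluster A this ratio was 1.06 to 1.13 in 5 samples and 1.32 in young replicate 3. The share that free RNA gives in cells without a cluster was not measured within the samples that held it; median depths were 13001 to 19951 UMIs per cell.

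**Figure D3:**
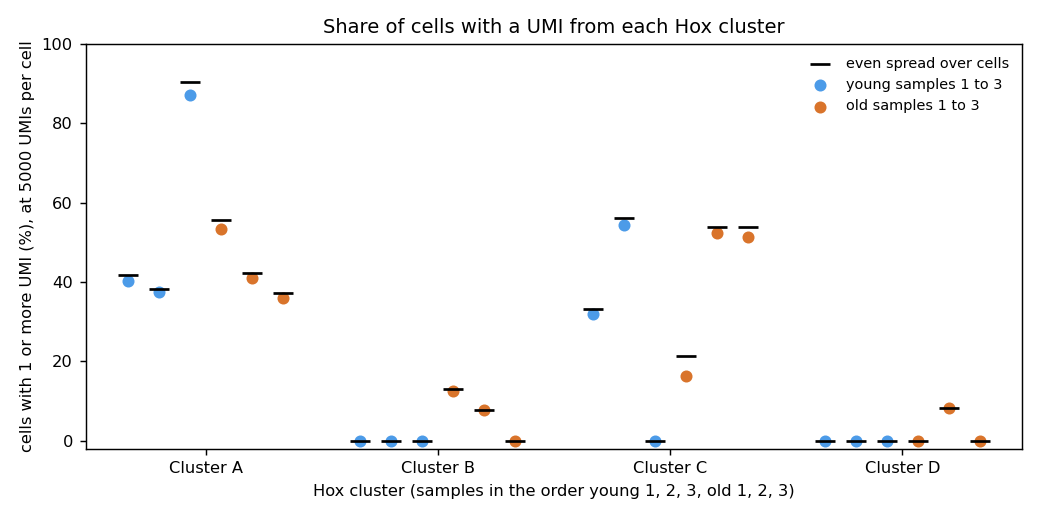
Share of cells (%) with 1 or more UMI of each Hox cluster after thinning each cell to 5000 UMIs, with 1 point per sample in the order young 1 to 3 and old 1 to 3, and a black bar for an even spread of the same RNA over cells. Most points of clusters A and C lie below their bars, and the widest gap is that of old replicate 1 in cluster C (16.3% against 21.5%).

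Cluster B UMIs were found in 12.6% of cells of old replicate 1 and 7.69% of old replicate 2, near the even spread of 13.2% and 7.80%, and cluster D UMIs in 8.23% of old replicate 2, against 8.28%. With means of 0.141, 0.0812 and 0.0865 UMIs per cell, these shares alone can hardly tell an even from an uneven spread. The variance of cluster B UMIs per cell was 1.09 times their mean in old replicate 1 and 1.03 times in old replicate 2. For cluster D in old replicate 2 this ratio was 1.01. At most 0.0188% of cells in any other sample had a UMI of cluster B. In old replicate 2 the clusters were found together as often as separate shares would give: clusters B and C in 4.23% of cells against a product of 4.04%, and C and D in 4.11% against 4.32%. In old replicate 1 clusters B and C were found together in 0.283% of cells against a product of 2.06%.

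Old replicate 1 held cells with a cluster B pattern and cells with a cluster C pattern. At full depth, 2656 of its 9906 cells with 5000 or more UMIs had a cluster B and no cluster C UMI, 2533 had a C and no B UMI, 4468 had neither and 249 had both (2.51%, against a product of 8.24%). The split defines the levels of clusters B and C in these cells, which are therefore not results. The cells with both had a median of 27313 UMIs, against 14574 in the B cells and 14550 in the C cells, and whether they are doublets was not tested. All values of this split come from 1 library and have no replicate, and their intervals are 95% exact Poisson and cover counting error only.

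The 2 classes differed in genes that did not enter the split. RNA of 3 genes on the Y chromosome (Kdm5d, Uty and Eif2s3y) summed to 1.58 CPM (1.22 to 2.00) in the B cells and 75.1 CPM (72.5 to 77.8) in the C cells. Myf5, an early myogenic factor, was at 0.400 CPM (0.233 to 0.640) in the B cells and 34.9 CPM (33.1 to 36.7) in the C cells. Pax7 was at 5.86 CPM (5.15 to 6.63) and 27.3 CPM (25.8 to 29.0). The C cells were higher in all 3, and in Myod1 (117 against 46.3 CPM). Myog, the factor of differentiation, went the other way, at 8.35 CPM (7.51 to 9.27) in the B cells and 2.31 CPM (1.87 to 2.82) in the C cells, but the shares of cells with a Myog UMI were 1.13% and 0.987%, so few cells carried these UMIs in either set. En1, a homeodomain factor of dermomyotome and limb ectoderm, was higher in the B cells, at 43.0 CPM (41.1 to 45.0) against 7.95 CPM (7.12 to 8.86).

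Cluster A was found in both classes, at 192 CPM (188 to 196) in the B cells and 119 CPM (116 to 123) in the C cells. Hoxa7 was at 88.6 CPM in the B cells and 42.7 CPM in the C cells, and Hoxa5 at 11.1 and 4.46 CPM. Hoxa10 was nearly level, at 28.4 CPM (26.8 to 30.1) and 25.6 CPM (24.0 to 27.2). The cells with neither UMI had 174 CPM of cluster A, 7.65 CPM of Y-linked RNA and 3.68 CPM of Myf5, nearer to the B cells than to the C cells in each.

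The same relation can be read from the Y-linked side, which is no independent support for it. In old replicate 1, the 2050 cells with a Y-linked UMI had 139 CPM of cluster C and 6.53 CPM of cluster B, and the 7856 cells without one had 22.7 and 33.6 CPM. Absence of a Y-linked UMI at this depth does not show absence of the chromosome in a cell. The other 5 samples had at most 2 UMIs of any of these 3 genes. Xist, made from the inactive X chromosome, was at 287 to 638 CPM in the 4 samples on the longer gene list and was not analysed in old replicate 1. Whether old replicate 1 came from 1 animal is not given in the labels. In old replicate 2, split in the same way by clusters B and C, the 142 cells with B alone had 96.0 CPM of cluster A, 53.9 CPM of Myf5 and 25.0 CPM of Pax7, and the 5683 cells with C alone had 111, 52.9 and 22.3 CPM.

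**Figure D4:**
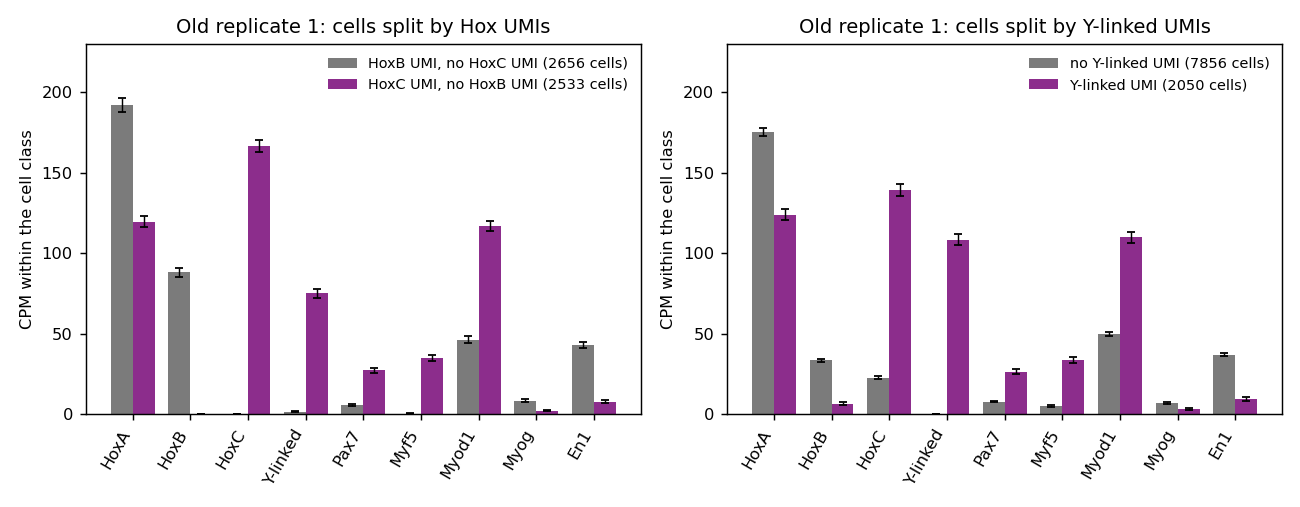
CPM within cell classes of old replicate 1 (bars, with 95% exact Poisson intervals) for Hox clusters A to C, summed Y-linked genes and 5 single genes, with cells split by Hox UMIs (left, where the levels of B and C are fixed by the split) and by Y-linked UMIs (right). Cells with Y-linked UMIs are high in cluster C (139 CPM), Pax7, Myf5 and Myod1 and low in En1.

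No Hox gene was called different between old and young. The test was edgeR's quasi-likelihood test on summed counts over 6 samples, with Benjamini-Hochberg adjustment over 14512 genes. It called 0 of the 20 Hox genes tested (11 in cluster A and 9 in C), against 0.00689% of all genes tested (1 gene). No Hox gene passed an unadjusted p of 0.05 in edgeR, against 512 of the 14512 genes. DESeq2 called 0 of the 20, against 1.51% of all genes. In DESeq2 1 of the 20 was under an unadjusted 0.05, against 1068 of the 14512 genes. The 19 other Hox genes, all of clusters B and D, did not pass the filter on low counts. Without that filter 37 Hox genes were tested and 0 were called, against 1 of 18797 genes. In that fit 4 of the 37 had an unadjusted p under 0.05 in edgeR, against 657 of the 18797. None of the 20 tested genes had young and old values that did not overlap, against 5.93% of all genes tested (5.02% higher and 0.903% lower in old). Over all 39 Hox genes, tested or not, Hoxb4, Hoxb6 and Hoxb9 were higher in each old than in each young sample, 3 of 39 against 4.53% of all 21485 shared genes. In old replicate 3 these values rest on 6, 2 and 3 UMIs, and Hoxb6 also had 2 UMIs in young replicate 3.

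The median log2 fold change of the 20 genes, old over young, was -0.040, against -0.0096 over all genes tested, and 10 of 20 were above 0. Cluster A genes had a median of -0.81 with 9 of 11 below 0, and cluster C genes a median of 0.58 with 8 of 9 above 0. Without young replicate 3, the fold changes of Hoxa3, Hoxa5, Hoxa7 and Hoxa11 were above 0 (1.08, 0.72, 0.48 and 2.67), and those of Hoxc5, Hoxc6, Hoxc10 and Hoxc13 below 0 (-0.33, -0.065, -0.19 and -0.99), so that these 8 changed sign. Hoxa9 and Hoxa10 stayed below 0 (-0.22 and -0.18), Hoxc11 as well (-1.45), and Hoxc8 stayed above 0 (0.36). As sums, cluster A was at 227 ± 220 CPM in young and 124 ± 35.0 CPM in old samples (SD, n = 3 each), and cluster C at 81.9 ± 82.3 and 122 ± 62.7 CPM. The difference, old minus young, was -103.6 CPM for cluster A and 40.6 CPM for cluster C, and 23.6 and -0.349 CPM without young replicate 3. With any 1 sample left out it lay between -169 and 23.6 CPM for A and between -0.349 and 81.9 CPM for C.

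The posterior cluster A genes had the smallest errors. Hoxa10 had a log2 fold change of -0.78 (SE 0.42) and Hoxa9 of -0.83 (SE 0.50). Without young replicate 3 they were at -0.18 and -0.22. Hoxa10 was at -1.08 without young replicate 2. Hoxa9 was at -1.34 without young or old replicate 1, where the fit in effect loses both, since the gene list term is then set by the other one alone. Hoxa7 had -0.60 (SE 0.71), and Hoxa3, Hoxa5 and Hoxa11 had -1.22 (SE 1.31), -1.29 (SE 1.15) and -1.48 (SE 1.66). In cluster C, Hoxc8 had 1.17 (SE 1.95) and Hoxc10 0.58 (SE 1.99), and Hoxc5, Hoxc6, Hoxc11 and Hoxc13 lay between -0.81 and 0.70 with SEs of 1.69 to 2.01. The adjusted p of each in edgeR was 1.00.

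**Figure D5:**
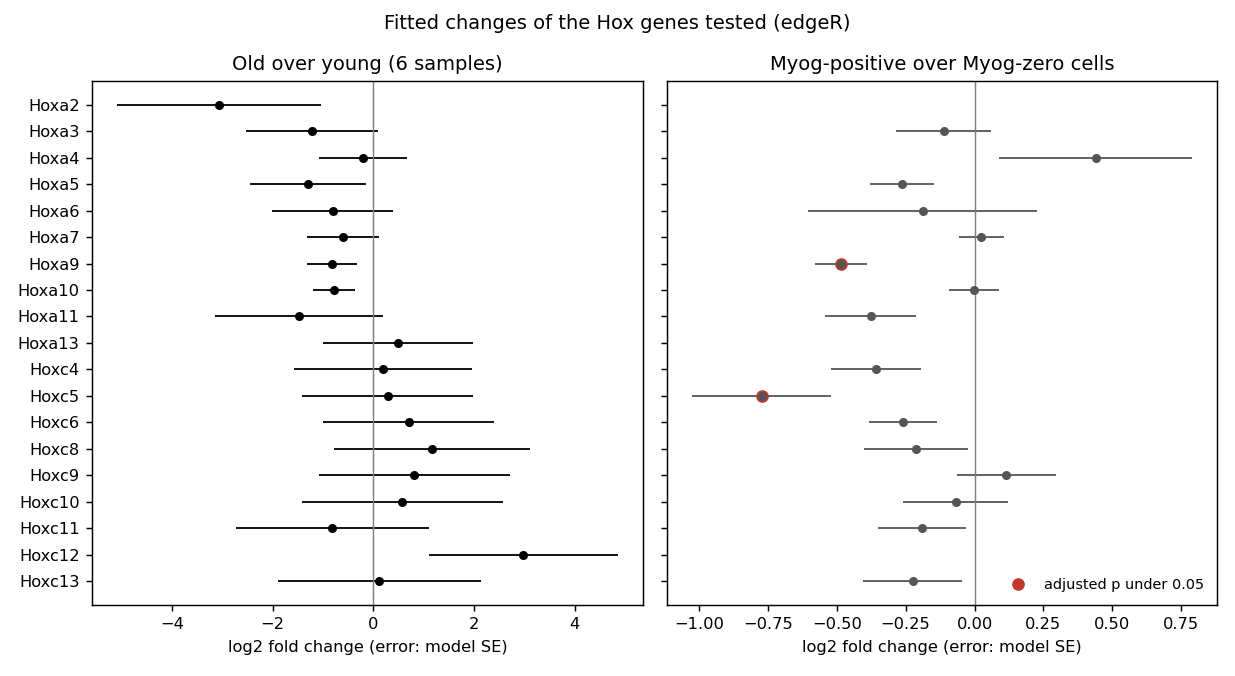
Fitted log2 fold changes (points) with model standard errors (lines) of Hox genes tested, old over young (left, 19 of 20 shown) and Myog-positive over Myog-zero cells (right, 16 of 17 shown); the horizontal scales differ. No gene was called on the left, and Hoxa9 and Hoxc5 (red) were called on the right.

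Proteins that work with Hox factors or set their expression were compared in the same fit, from lists chosen with earlier results of these data known. Of 11 TALE homeodomain cofactors, which bind DNA beside Hox proteins, 0 were called and the median log2 fold change was -0.075. Tgif1 was at 64.9, 54.9 and 63.4 CPM among young samples, against 51.1, 33.3 and 57.2 CPM in the old, and Meis2 at 29.7, 66.9 and 57.5 CPM against 45.3, 60.2 and 51.4 CPM. The groups overlapped for both, with log2 fold changes of -0.44 (SE 0.30) and 0.0039 (SE 0.20). Of 13 genes of trithorax (MLL) complexes, which keep Hox genes active, 0 were called with a median of -0.28, and the most abundant, Dpy30, Psip1 and Ash2l, had -0.31, -0.40 and -0.35.

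Of 18 genes of retinoic acid signalling and upstream patterning, 13 were tested, 0 were called and the median was -0.12. Rara, a retinoic acid receptor, was at 25.3, 14.5 and 38.2 CPM among young samples, against 26.4, 21.1 and 24.4 CPM in the old, with young replicate 3 highest. Nr6a1 and Rxrb had log2 fold changes of -0.16 and -0.10. Of 21 other positional factors, 12 were tested and 0 called, with a median of 0.20. En1 was at 39.0, 46.3 and 24.6 CPM among young samples, against 30.5, 12.3 and 6.01 CPM in the old (log2 fold change -1.54, SE 0.46, edgeR adjusted p 1.00). Lbx1, a factor of migrating limb muscle progenitors, had 0.097 (SE 0.37).

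The limb-type factors were nearly absent, and they were chosen for naming after their values were seen. Tbx5, of the forelimb, had no UMI in any sample, Tbx4, of the hindlimb, stayed at or under 0.414 CPM, and Pitx1, of the hindlimb, was at 2.11 CPM in old replicate 3 and at or under 0.0056 CPM elsewhere. Tbx1, a head muscle factor, was at 88.0 CPM in old replicate 3 and at or under 9.76 CPM elsewhere. Of the 12 positional factors tested, 1 had groups that did not overlap, against 5.93% of all genes tested: Tbx15, at 6.92, 8.88 and 11.7 CPM among young samples, against 16.1, 22.4 and 21.1 CPM in the old, and it was not called by edgeR (adjusted p 1.00).

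Cells with Myog RNA were compared with the others of the same sample, since muscle cells change many regulators when they express Myog. Myog-positive cells (1 or more UMI after thinning to 5000) were counted as 291, 2142 and 556 among young samples, against 69, 1223 and 5540 among old ones. Over 6 samples, edgeR called 2 of 17 Hox genes lower in Myog-positive cells and 0 higher, against 30.2% of 12370 genes tested (17.2% lower and 13% higher), so that Hox genes were not called at a higher rate than other genes, and the median log2 difference of the 17 was -0.19.

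The class is set by detection and is not a cell state by itself, since free RNA can give a Myog UMI to a cell that does not express the gene. No share of Myog UMIs was measured in cells that lack it, so the part of free RNA in the class was not tested. Between 21.4% and 53.1% of the Myog-positive cells of a sample held a single Myog UMI. Myog-positive cells were 0.697% to 45.5% of a sample, whereas an even spread of the same Myog RNA would give 3.87% to 99.2%, and the share was the lower in 6 of 6 samples. With 5 or more Myog UMIs required, a threshold chosen after seeing the data, old replicate 1 was left out for having 26 such cells, and 6 of 16 Hox genes were called against 36.8% of all genes tested. Hoxa5, Hoxa9, Hoxa11, Hoxc5 and Hoxc13 were lower in those cells and Hoxa4, another cluster A gene, was higher.

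Hoxa9 was at 22.2 CPM in Myog-zero and 17.2 CPM in Myog-positive cells of young replicate 1, at 32.5 and 20.6 CPM in young replicate 2, and at 78.4 and 68.9 CPM in young replicate 3. In old replicates 1, 2 and 3 it was at 31.5 and 23.2 CPM, 24.5 and 13.9 CPM, and 19.2 and 12.8 CPM. It was lower in Myog-positive cells of 6 of 6 samples, with a log2 difference of -0.48 (SE 0.094, edgeR adjusted p 0.00372), though the value in old replicate 1 rests on 8 UMIs. With 5 or more Myog UMIs required, and without old replicate 1, the difference was -0.93 (SE 0.15, edgeR adjusted p 0.00186). Hoxc5 was at 2.95 and 2.06 CPM in Myog-zero and Myog-positive cells of young replicate 1 and at 11.002 and 7.97 CPM in young replicate 2, and at 3.60 and 0, 6.93 and 1.66, and 9.93 and 6.26 CPM in old replicates 1, 2 and 3. It was lower in 5 of 6 samples, with a log2 difference of -0.77 (SE 0.25, edgeR adjusted p 0.0420), and had no UMI in either class of young replicate 3. In Myog-positive cells these values rest on 3 UMIs in young replicate 1 and on 0 and 10 UMIs in old replicates 1 and 2. Cells with cluster B and cells with cluster C RNA in old replicate 1 also differed in Myog CPM, and the part of that mix was not tested. The Hoxc5 call was lost with DESeq2 (adjusted p 0.0831), with unthinned counts (edgeR adjusted p 0.0830), and without old replicate 1, 2 or 3 (edgeR adjusted p 0.0582, 0.145 and 0.0857). Hoxa10 and Hoxa7 had log2 differences of -0.0024 (SE 0.090) and 0.025, and whether Hoxa9 differs from them was not tested.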

How the data were processed

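Single-cell 3′ v3.1 libraries of 6 populations were deposited as raw UMI counts per gene and cell. The authors' counts came from Cell Ranger 7.2.0 on mm10 per the submitters' processing notes, whereas the file headers name 7.0.0 for young and old replicate 1 (21849 genes) and 7.2.0 for the others (32285 genes). Use of introns is not given in the sources used here. Genes were joined by ID. Barcodes with at least 1000 UMIs, 500 genes and at most 15% mitochondrial UMIs were kept; no doublet caller was run, and an alternative left out the 10% of cells with the most UMIs. Summed counts were tested with edgeR 4.0.16 (R 4.3.3; TMM, filterByExpr, robust) with terms for gene list and group, and for Myog state with sample and state; DESeq2 1.42.0 was an alternative. The scripts were tested on simulated data. Sequences came from RefSeq tables.

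Members and lists were chosen with earlier results of these data known; the split of cells in old replicate 1 and the examined neighbouring genes were chosen after Hox values were seen. Hox genes described in full had an adjusted p under 0.05 in either fit, 20 CPM or more in a sample, or groups that did not overlap; of the other lists, called genes and the 3 with the highest mean; some genes the rule names are not reported here. The correlations of same-numbered samples could not decide whether they are paired, and the main fit had no term for replicate number.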

Additional observations from a re-analysis of the deposited data

Results flagged for a closer look

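Noncoding RNAs of the Hox clusters that are on the longer gene list only entered no comparison. 8 of them exceeded the 3 counts that a count of 0 allows in at least 1 of the 4 samples counted on that list, and Hottip, Haglr and Hoxb5os did not. Hoxa11os, antisense to Hoxa11, was at 126 CPM in young replicate 3 and at 0.207, 4.74 and 12.1 CPM in young replicate 2 and old replicates 2 and 3. Hoxaas3 and Hoxaas2 were also highest in young replicate 3, at 13.1 and 3.70 CPM, as was Halr1 at 0.265 CPM. Hotairm1, of cluster A, was at 18.6 and 29.4 CPM in young replicates 2 and 3 and at 24.5 and 33.1 CPM in old replicates 2 and 3, a narrower range than that of the cluster A genes. Hotair, which lies in cluster C, was at 5.05 CPM in young replicate 2, 0.811 and 0.110 CPM in old replicates 2 and 3 and had no UMI in young replicate 3, the sample nearly without cluster C RNA. Hoxd3os1 was at 10.8 CPM in old replicate 2, the sample with cluster D RNA, and at or under 0.0164 CPM in the other 3. Hoxb3os reached 0.113 CPM in old replicate 2. Young replicate 1 and old replicate 1 were not analysed for these RNAs.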

How the results depend on the processing

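The count of Hox genes called between old and young was 0 under all 16 alternatives, and none of the named fold changes passed the threshold in any of them. With the replicate block it was also 0, with a Hox median of 0.17 and Hoxa11 and Hoxc11 at 0.18 and 0.36; same-numbered samples had deviations correlated at 0.378, 0.224 and -0.081, not every sample correlated best with its own number, and the pair of highest correlation was also the pair counted on the shorter gene list. Leaving out young or old replicate 1 in effect removes both, because the gene list term then fits the other alone, and such fits gave the lower ends for Hoxa3, Hoxa5, Hoxa7, Hoxa9 and Hoxa11. Leaving out 1 replicate moved the Hox median between -0.26 and 3.42, the latter without young replicate 2, and gave ranges of -2.24 to 1.08 for Hoxa3, -2.15 to 0.72 for Hoxa5, -1.22 to 0.48 for Hoxa7, -1.34 to -0.22 for Hoxa9, -1.08 to -0.18 for Hoxa10, -2.05 to 2.67 for Hoxa11, -0.33 to 4.53 for Hoxc5, -0.065 to 4.39 for Hoxc6, 0.36 to 4.96 for Hoxc8, -0.19 to 5.202 for Hoxc10, -1.45 to 4.21 for Hoxc11 and -0.99 to 3.42 for Hoxc13. Hoxc13 was at -0.24 without the gene list term. DESeq2 called 219 genes in all, against 1, and edgeR 0 to 3 when 1 replicate was left out. Between Myog states the Hox count was 2 of 17, against 30.2% of all genes tested. It was 3 of 16 with Myog-positive cells at 2 or more UMIs, against 32.8%. At 5 or more (chosen after seeing the data) it was 6 of 16, against 36.8%. It was 1 of 17 with DESeq2, against 31.3%, and 1 of 20 with unthinned counts, against 35.4%. With 1 replicate left out it was 1 to 2 of 16 or 17, against 20.9% to 31.5%. The cause of these changes was not tested. Hoxa9 stayed called there in all 12 alternatives. Old minus young, the share of cells with a UMI was 18.4 percentage points for cluster B and 9.77 for D with unthinned counts, since deeper cells hold more UMIs. In summed counts the floor of 3 UMIs was 0.0155 to 0.0225 CPM.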
